A study of Mus musculus with 16 samples.

Results

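The proteasome genes of the array were studied in mouse macrophages grown from stem cells and given heme bound to albumin or lipopolysaccharide (LPS). Members were all probes whose accession maps to a mouse symbol made of Psma, Psmb, Psmc, Psmd or Psme and a number. This rule found 55 of 39429 probes, for 45 of the 20659 gene symbols on the array. The gene table holds 52 such symbols, and the 7 without a probe here are 6 pseudogenes and Psme2b, a close copy of Psme2. Tests were made on 43 of the 45 symbols. Psma8 and Psmb11, the alpha and beta subunits of testis and thymus, were too dim, with their probes well above background on 2 and 0 of 16 arrays. Another 2 symbols, Psmc3ip and Psme3ip1, match the letters but encode partners and no subunit, which leaves 41 tested proteasome genes. They are 5 interferon-inducible genes (Psmb8, Psmb9, Psmb10, Psme1 and Psme2) and 36 others, called constitutive here, and all 41 were well above background on 16 of 16 arrays.

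The study used 4 groups of 4 arrays, with replicates lettered a to d that the labels describe as independent and biological. Control macrophages were untreated and collected at 0 h. The treated macrophages were collected at 8 h. They had received heme-albumin, at 50 µM in one group and 200 µM in another, or 10 ng/mL of LPS, a bacterial wall component that activates Toll-like receptor 4. Each array set its sample, in red, against untreated reference RNA in green, and the control arrays held untreated RNA in both colours. A value on an array is therefore a log2 ratio of sample over untreated reference, and a change is a difference between group means of that ratio, with the standard error (SE) of the limma fit. For each gene that SE rests on an estimate of spread shared by all 4 groups, so spread among LPS arrays also enters the heme-albumin comparisons. A gene rose or fell where the adjusted p of limma, by Benjamini-Hochberg over 12759 genes, was under 0.05. The control and the treatments differ in time as well as in treatment, and these cannot be told apart. The labels do not name the stem cell line or how the macrophages were derived.

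The proteasome is the protease that degrades ubiquitin-tagged proteins. Its barrel-shaped core has outer rings of alpha subunits and inner rings of beta subunits, of which Psmb5, Psmb6 and Psmb7 carry the active sites. Interferons and inflammatory signals make cells build the immunoproteasome, in which Psmb8, Psmb9 and Psmb10 take the places of Psmb5, Psmb6 and Psmb7, and the activator PA28, made of Psme1 and Psme2, can cap the core in place of the ATP-driven regulatory particle. In macrophages the immunoproteasome is known for cutting peptides for MHC class I.

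The starts of 4 of these genes are shown because the results turn on them. Psmb8 and its constitutive counterpart Psmb5 moved apart after heme-albumin, and Psmb9 and Psme1 are further inducible genes. Each stretch runs from 170 bases before to 30 bases after the start of transcription, read 5′ to 3′ on the gene's own strand, from RefSeq's mouse assembly GRCm38.p6. They lie at chr17:34198025-34198224 (plus strand, Psmb8), chr17:34187301-34187500 (minus strand, Psmb9), chr14:55578324-55578523 (plus strand, Psme1) and chr14:54617966-54618165 (minus strand, Psmb5). Capitals mark matches to 3 motifs: the interferon-stimulated response element ISRE (GAAA, then a pair of any bases, then GAAA again), the gamma-activated site GAS (TTCNNNGAA) and the antioxidant response element ARE (TGACNNNGC).

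Psmb8: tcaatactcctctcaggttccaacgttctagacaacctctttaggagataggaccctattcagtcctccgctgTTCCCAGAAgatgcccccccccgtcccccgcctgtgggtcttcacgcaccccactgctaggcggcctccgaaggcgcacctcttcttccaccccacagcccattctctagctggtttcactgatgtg

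Psmb9: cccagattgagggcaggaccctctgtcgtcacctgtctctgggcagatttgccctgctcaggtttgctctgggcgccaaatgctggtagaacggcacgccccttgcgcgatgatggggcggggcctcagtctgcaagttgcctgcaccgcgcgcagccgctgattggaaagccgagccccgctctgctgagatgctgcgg

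Psme1: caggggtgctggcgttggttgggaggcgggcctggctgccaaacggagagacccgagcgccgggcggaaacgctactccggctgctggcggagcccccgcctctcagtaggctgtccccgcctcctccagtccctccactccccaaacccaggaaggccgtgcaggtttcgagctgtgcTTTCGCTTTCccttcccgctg

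Psmb5: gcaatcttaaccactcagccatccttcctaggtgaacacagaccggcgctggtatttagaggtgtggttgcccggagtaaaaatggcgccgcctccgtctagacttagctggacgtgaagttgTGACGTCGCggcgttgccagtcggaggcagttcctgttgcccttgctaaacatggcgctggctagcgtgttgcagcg

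In Psmb8 the capitals mark a GAS match that begins 97 bases before the start. In Psme1 they mark an ISRE match on the other strand, 9 bases after the start, and in Psmb5 an ARE match 47 bases before it. Psmb9 has no match in this stretch. Over both strands of 300-base windows, 35 of the 41 members have sequence in the RefSeq table, among them all 5 inducible genes. An ISRE match was found for 4 of the 35 (11.4%), against 3.99% of 27025 genes with a window, and a GAS match for 2 (5.71%), against 9.55%. An ARE match was found for 6 (17.1%), against 14% of all genes, and an NF-kB match for 6 (17.1%), against 9.55%. The inducible genes held 1 ISRE match, 1 GAS match, 0 ARE matches and 0 NF-kB matches. No matches overlapped. A match describes the letters only, and says nothing on whether a factor binds.

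The arrays had between 49.9 and 59.4 percent of probes well above background in red and no probe saturated in red, and the number of arrays limits the precision. Saturation in green was not examined. Because 188 to 690 outlier spots were left out per array, Psmb10, Psmb6 and Psme2 have no value on LPS replicate a, and Psmb5 has none on LPS replicate a or on replicate a at 200 µM. The other 37 members have values on all 16 arrays. A slide carries 1 replicate letter, with letters a and b read on a first scan day and letters c and d on a second. Of 10 macrophage markers, 9 were on the array, and all 9, among them Csf1r, Adgre1 and Spi1, were well above background on every control array. Embryonic stem cell markers other than Nanog were not, and Pou5f1, Sox2 and Zfp42 were so on 0 of 16 arrays.

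After LPS most proteasome genes rose, and the inducible ones had the larger median. Of the 41 genes 36 rose and 0 fell, and 15 of them rose at least 2-fold. At an unadjusted p under 0.05 limma had 37 higher and 0 lower, a threshold at which no share of all genes is given. A plain analysis of variance with adjusted p had the same counts of 37 and 0, where it called 34.2% of all genes higher and 44.1% lower. Over all genes tested, 34.5% rose, 44.3% fell and 14% rose at least 2-fold. The median change of the 41 was 0.72, against −0.09 over all genes. The 4 LPS and 4 control ratios did not overlap, with LPS higher, for 33 of 41 members and for 31.3% of all genes. All 5 inducible genes rose at least 2-fold, with a median of 1.83. Of the 36 constitutive genes 31 rose, 10 of them at least 2-fold, with a median of 0.64.

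**Figure D1:**
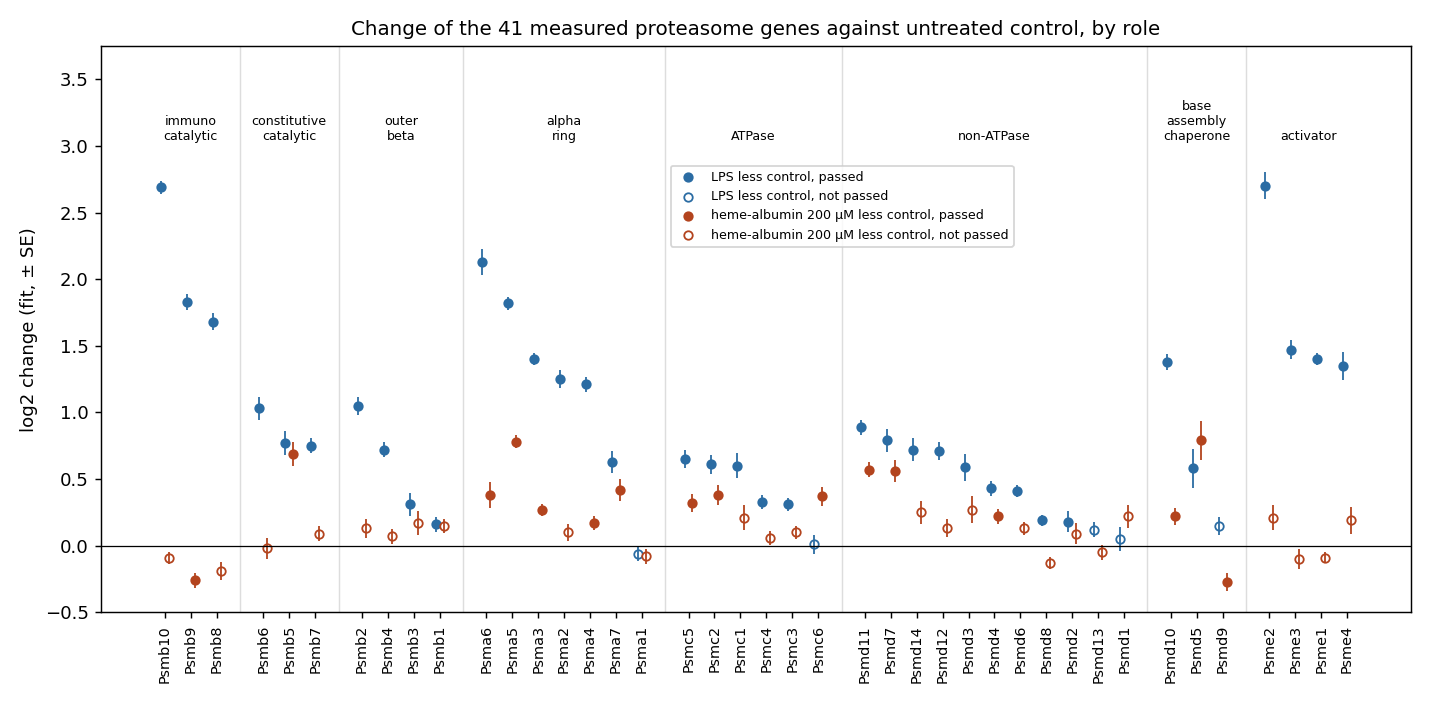
Changes of the 41 tested proteasome genes against control on the log2 scale (vertical axis), grouped by role along the horizontal axis. Points are differences of group means in the limma fit with SE bars, LPS in blue and heme-albumin 200 µM in red, filled where adjusted p was under 0.05. After LPS, Psmb10 and Psme2 stand highest at 2.69 and 2.7, while no change at 200 µM is above 0.79.

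Psmb10, the inducible counterpart of Psmb7, stood at 2.59, 2.61 and 2.61 on LPS replicates b, c and d, and at 0, −0.08, −0.15 and −0.1 on control replicates a to d. The LPS ratios lie within 0.02 of each other and far above every control ratio. The change was 2.69 ± 0.0487 (SE; adjusted p = 1e-14), or 6.45-fold. Psmb9, the counterpart of Psmb6, stood at 1.87, 1.72, 2.03 and 1.84 after LPS against 0.05, 0, 0.08 and 0.02 in the control. It rose by 1.83 ± 0.0579 (adjusted p = 6.3e-13) with no overlap. Psmb8, the counterpart of Psmb5, stood at 1.79, 1.69, 1.69 and 1.45 after LPS and between −0.08 and 0.01 in the control. It rose by 1.68 ± 0.0652 (adjusted p = 5.8e-12), again with no overlap.

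The PA28 genes rose with them. Psme2, the beta subunit of PA28, stood at 2.84, 2.43 and 2.53 on LPS replicates b, c and d against −0.24 to −0.01 in the control, with replicate b the highest. It rose by 2.7 ± 0.102 (adjusted p = 1.5e-11), and by 2.48 on its other probe. Whether RNA of the copy Psme2b adds to the signal was not tested. Psme1, the alpha subunit, stood at 1.51, 1.33, 1.41 and 1.38 after LPS against −0.01 to 0.03 in the control. Its rise of 1.4 ± 0.0429 (adjusted p = 4.6e-13) was the smallest of the 5 inducible genes.

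The constitutive active-site subunits rose too, each with a smaller change than its inducible counterpart. Psmb6 stood at 1.39, 1.15 and 1.05 on LPS replicates b to d, above control ratios of 0 to 0.24, a rise of 1.03 ± 0.0835 (adjusted p = 5.3e-08). Psmb5 stood at 1.15, 0.79 and 0.72 against 0.03 to 0.15, a rise of 0.77 ± 0.0916 (adjusted p = 5e-06), or 0.49 on its other probe. Psmb7 stood at 0.59, 0.62, 0.45 and 0.51 against −0.29 to −0.15, a rise of 0.75 ± 0.0564 (adjusted p = 1.1e-08). In all 3 genes every LPS ratio was above every control ratio.

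**Figure D2:**
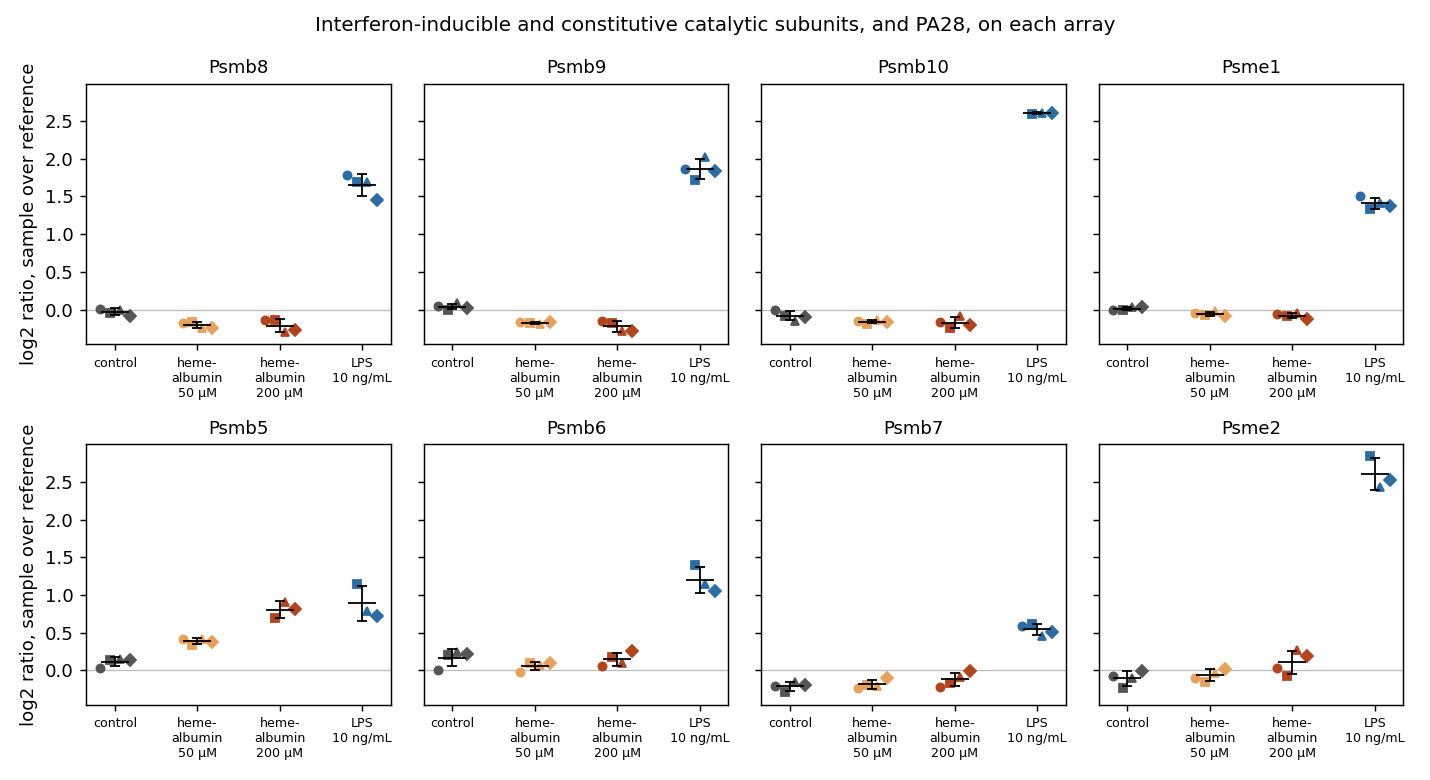
Log2 ratio of sample over untreated reference (vertical axis) on each array for the inducible genes Psmb8, Psmb9, Psmb10, Psme1 and Psme2 and the constitutive Psmb5, Psmb6 and Psmb7, by group (horizontal axis). Circles, squares, triangles and diamonds are replicates a to d, and bars give the mean ± SD. All 8 genes are higher after LPS, and Psmb5 also stands above every control array at 200 µM, between 0.69 and 0.91.

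Subtracting the constitutive from the inducible ratio on the same array gives the balance of each pair, which is given as a description. Psmb10 less Psmb7 was 2.08 ± 0.093 after LPS (SD, n = 3) against 0.13 ± 0.1 in the control (n = 4). The other pairs shifted less. Psmb8 less Psmb5 was 0.72 ± 0.18 after LPS (n = 3) and −0.14 ± 0.087 in the control (n = 4), and Psmb9 less Psmb6 was 0.67 ± 0.29 (n = 3) and −0.13 ± 0.12 (n = 4). LPS and control arrays do not overlap in any of the 3 pairs. Over genes with values on all 16 arrays, the mean of Psmb8, Psmb9 and Psme1 less the mean of 34 constitutive genes was 0.97 ± 0.11 after LPS and 0.03 ± 0.018 in the control (n = 4 each).

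After heme-albumin the same balances moved the other way or barely moved. Psmb8 less Psmb5 was −0.6, −0.5, −0.66 and −0.62 on the arrays at 50 µM and −0.83, −1.21 and −1.08 on replicates b to d at 200 µM, all below the lowest control array at −0.22. Psmb9 less Psmb6 was −0.24 ± 0.059 at 50 µM and −0.37 ± 0.14 at 200 µM (n = 4 each), and both groups overlap the control, whose highest array is replicate a at 0.05. Between arrays of the same letter, this balance was below the control in all 4 pairs at 50 µM (by −0.2, −0.07, −0.1 and −0.07) and at 200 µM (by −0.24, −0.16, −0.23 and −0.33). Psmb10 less Psmb7 was 0.02 ± 0.07 and −0.05 ± 0.11 (n = 4 each), also overlapping, and below the control in 3 of 4 pairs at each dose. The difference between Psmb8, Psmb9, Psme1 and the 34 others was −0.2 ± 0.033 at 50 µM and −0.36 ± 0.078 at 200 µM (n = 4 each), and no array of a heme-albumin group reached the control range of 0.01 to 0.05. It leaves out Psmb10 and Psme2, which lack an LPS value. Psmb10 changed by −0.08 at 50 µM and −0.09 at 200 µM, and Psme2 went the other way, by 0.04 and 0.21. None of these changes passed.

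**Figure D3:**
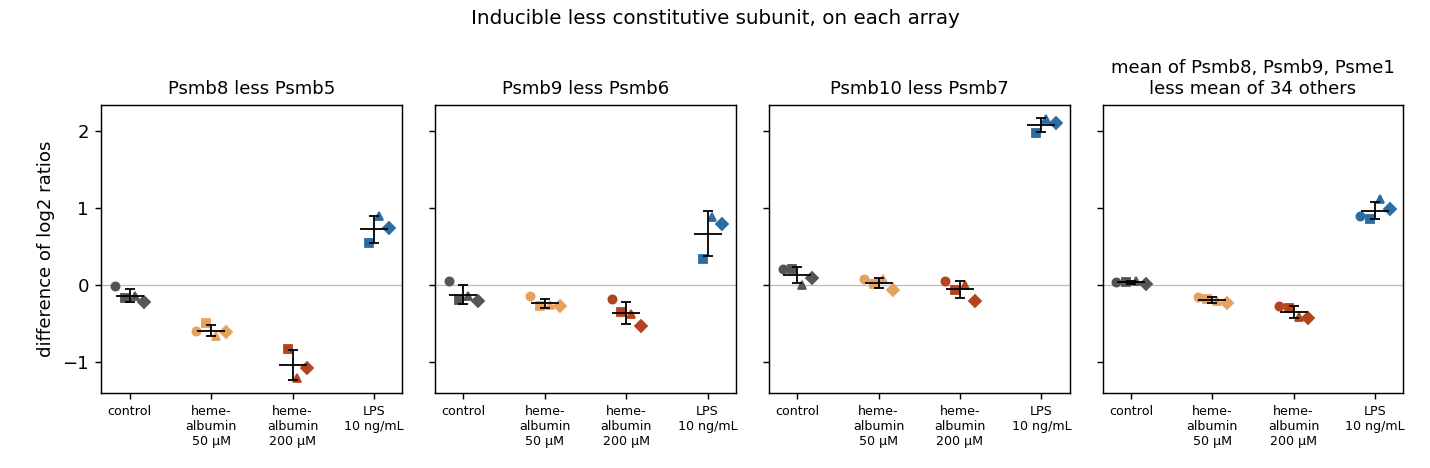
Difference of log2 ratios (vertical axis) between an inducible gene and its constitutive counterpart on each array, by group (horizontal axis), and at the right between the mean of Psmb8, Psmb9 and Psme1 and the mean of 34 others. Markers are replicates a to d and bars the mean ± SD. LPS arrays lie above the control in every panel, and the arrays at 200 µM lie lowest for Psmb8 less Psmb5, at −1.21 to −0.83.

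In the alpha ring, whose subunits form the gate of the core, 6 of 7 genes rose after LPS, 5 of them at least 2-fold, with a median of 1.25. Psma6 stood at 2.65, 2.22, 2.15 and 2.07 after LPS against 0.12 to 0.17 in the control. It rose by 2.13 ± 0.0955 (adjusted p = 2.9e-11), with replicate a the highest. Psma5 stood at 1.85, 1.61, 1.7 and 1.65 against −0.14 to −0.09, a rise of 1.82 ± 0.0489 (adjusted p = 1.2e-13). These changes are of the size seen for Psmb8 and Psmb9.

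The next alpha genes rose by a little over 2-fold. Psma3 stood at 1.49, 1.3, 1.42 and 1.43 after LPS and at 0 to 0.02 in the control, a rise of 1.4 ± 0.0447. Psma2 stood at 1.4, 1.22, 1.34 and 1.3 against −0.11 to 0.18, a rise of 1.25 ± 0.0647. Psma4 stood at 1.19, 1.1, 1.19 and 1.26 against −0.11 to 0.03, a rise of 1.21 ± 0.0555. In none of the 3 did the groups overlap. Psma7 rose by 0.63 ± 0.0825 (adjusted p = 5.7e-06). Psma1 did not pass: its ratios of 0.15, 0.11, −0.09 and −0.03 after LPS overlap the control ratios of 0.08 to 0.13, and the change was −0.06 ± 0.0537 (adjusted p = 0.29). The alpha subunits enter the core in equal number, and the changes of their transcripts ran from −0.06 to 2.13.

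All 4 structural beta genes rose. Psmb2 stood at 1.23, 1.21, 1.05 and 1.09 after LPS against −0.02 to 0.21, a rise of 1.05 ± 0.0685 (adjusted p = 2.2e-09). Psmb4 rose by 0.72 ± 0.0555 and Psmb3 by 0.31 ± 0.0875. The LPS ratios of Psmb3, from 0.05 to 0.54, overlap its control ratios of −0.03 to 0.08. Psmb1 had the lowest change of the ring at 0.16 ± 0.0537 (adjusted p = 0.011), with overlapping ratios. Its call was lost from the red channel alone (0.28, adjusted p = 0.075).

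In the regulatory particle, which recognises and unfolds tagged proteins, the median changes were lower than in the alpha ring, a difference that was not tested. Of its 6 ATPase genes, which thread substrates into the core, 5 rose after LPS, none 2-fold, with a median of 0.47. The highest was Psmc5 at 0.65 ± 0.0688 (adjusted p = 5.7e-07). Psmc6 did not pass, at 0.01 ± 0.0697 (adjusted p = 0.91), but passed after normexp background correction (0.17, adjusted p = 0.046). Psmc3 rose by 0.31 ± 0.0475, while its other probe was at 0.01 and did not pass. Of 11 non-ATPase genes 9 rose, none 2-fold, with a median of 0.43. Psmd11, a scaffold subunit of the lid, rose most, by 0.89 ± 0.0559 (adjusted p = 1.3e-09), and Psmd14, the enzyme that removes ubiquitin from substrates, rose by 0.72 ± 0.0868 (adjusted p = 2.4e-06). Psmd1, a large scaffold subunit of the base, was at 0.05 ± 0.087 (adjusted p = 0.59) and Psmd13, a lid subunit, at 0.12 ± 0.0579 (adjusted p = 0.082), which passed after normexp correction (0.33, adjusted p = 0.00011).

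Among the chaperones that assemble the base of the regulatory particle, Psmd10 (gankyrin) stood at 1.48, 1.52, 1.49 and 1.35 after LPS against 0 to 0.14 in the control. It rose by 1.38 ± 0.0618 (adjusted p = 2.8e-11), and by 2.07 on its other probe. Psmd5 rose by 0.58 ± 0.147 (adjusted p = 0.0021), and Psmd9 was at 0.15 ± 0.0674 (adjusted p = 0.051), with its other probe at −0.04. Both other activators of the core rose as well. Psme3, the nuclear activator PA28 gamma, stood at 1.9, 1.7, 1.94 and 2.15 after LPS against 0.42 to 0.48 in the control, a rise of 1.47 ± 0.0716 (adjusted p = 7.7e-11). Psme4, the activator PA200, stood at 0.92, 0.64, 0.71 and 1 against −0.71 to −0.26, a rise of 1.35 ± 0.103 (adjusted p = 1.3e-08), or 1.08 on its other probe. Neither gene is counted among the interferon-inducible ones. Of the pair that only match the letters, Psmc3ip, a recombination factor, fell by 0.89 ± 0.152 (adjusted p = 8.2e-05), and Psme3ip1, a binding partner of Psme3, was at 0.03 ± 0.0463 (adjusted p = 0.58).

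The size of the LPS change differed between arrays of the first and the second scan day for constitutive genes. Each day had its own slides and its own replicate letters, so scan day, slide and replicate cannot be told apart. What made the changes differ was not tested. Of the 36 constitutive genes, 32 had a higher (signed) change on the first day than on the second, where 54.9% of all genes had. Of these 32, 13 passed a test of the difference within limma, and 0 of the 36 passed the other way. For Psmb5 and Psmb6, 2 of the 13, the first-day LPS value is replicate b alone, assumed to vary like the other groups, and among the 34 genes with both arrays 11 passed. Over 12758 genes, 19.7% passed with a higher change on the first day and 13.9% with a higher change on the second. The median change of the 36 was 0.82 on the first day and 0.51 on the second, while that of the 5 inducible genes was 1.77 and 1.89. Over all genes the median was −0.06 and −0.13. Psmd5 differed most, with ratios of 1.15 and 1.03 on LPS replicates a and b but 0.33 and 0.4 on c and d, and changes of 0.95 and 0.22 by day (adjusted p of the difference = 3e-04). The scaffold gene Psmd3 was at 0.81 and 0.36 (adjusted p = 0.0022) and the ATPase gene Psmc1 at 0.82 and 0.39 (adjusted p = 0.0037). In 2 of those that passed the sign differed between days, Psmd1 at 0.27 and −0.16 (adjusted p = 0.0059) and Psma1 at 0.05 and −0.18 (adjusted p = 0.019). Of the inducible genes Psme2 was at 3 and 2.53 (adjusted p = 0.01), with replicate b as its one LPS array of the first day, and 0 of the 3 with both arrays passed. The alpha genes Psma2, Psma3, Psma4 and Psma5 differed between days by at most 0.05, with adjusted p from 0.71 to 0.94.

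**Figure D4:**
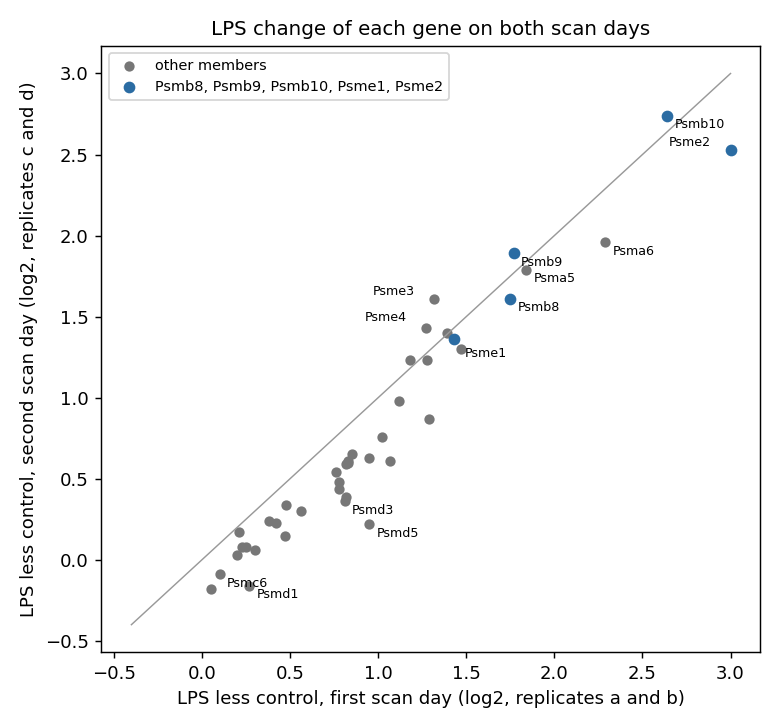
Change after LPS on the first scan day (replicates a and b, horizontal axis) against the second (replicates c and d, vertical axis), both in log2, for the 41 proteasome genes. For Psme2, Psmb10, Psmb5 and Psmb6 the first-day LPS value is replicate b alone. The line marks equal change. Most constitutive genes (grey) with changes under 1 lie below it, with Psmd5 at 0.95 and 0.22, while Psmb8, Psmb9, Psmb10 and Psme1 (blue) lie near it and Psme2 below it at 3 and 2.53.

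At 200 µM heme-albumin, part of the constitutive genes rose by less than 2-fold, and none of the inducible ones passed upward. Of the 41 genes 14 rose and 2 fell, where 10.8% of all genes rose and 12% fell, and 0 members passed at 2-fold, against 2.05% of all genes upward and 0.98% downward. Falls numbered 4 with scan day as a block, where 14.3% of all genes fell, and 4 by plain analysis of variance, where 12.3% did. The block added Psmb8 (adjusted p = 0.018) and Psmd8 (adjusted p = 0.046). The 4 and 4 ratios did not overlap for 21 members higher and 7 lower, against 15.9% and 19.8% of all genes. The median was 0.17, against −0.02 over all genes. All 14 that rose are constitutive: 5 of 7 alpha genes, 3 of 6 ATPases, 3 of 11 non-ATPases, 2 of 3 assembly chaperones and 1 of 3 active-site genes, but 0 of 4 structural beta genes and 0 of 4 activators. In the test of scan days 0 of the 41 passed, where 0% of all genes passed with a higher change on the first day and 0.00784% with a higher change on the second.

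Psmd5 had the largest rise at 200 µM. Its ratios were 0.86, 0.88, 0.93 and 1.09 on replicates a to d, above 0.09, 0.2, 0.17 and 0.12 in the control, a change of 0.79 ± 0.147 (adjusted p = 0.0012). Psma5 stood at 0.61, 0.69, 0.71 and 0.64 against −0.14, −0.09, −0.12 and −0.11. Its change of 0.78 ± 0.0489 had an adjusted p of 4.5e-08, the lowest of the members. Psmb5 stood at 0.69, 0.91 and 0.81 on replicates b to d against 0.03, 0.14, 0.15 and 0.14, a change of 0.69 ± 0.0916 (adjusted p = 0.00015), and 0.61 on its other probe. In these 3 genes no array of the treated group came near the control.

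Next came lid subunits of the regulatory particle. Psmd11 stood at 0.32, 0.31, 0.39 and 0.4 against −0.25 to −0.17 and rose by 0.57 ± 0.0559 (adjusted p = 4.1e-06). Psmd7 stood at 0.33, 0.18, 0.38 and 0.3 against −0.29 to −0.23 and rose by 0.56 ± 0.085 (adjusted p = 0.00022). The alpha genes Psma7, Psma6 and Psma3 rose by 0.42 ± 0.0825, 0.38 ± 0.0955 and 0.27 ± 0.0447. The ATPase genes Psmc2, Psmc6 and Psmc5 rose by 0.38 ± 0.0738, 0.37 ± 0.0697 and 0.32 ± 0.0688. Psmd10, the ubiquitin receptor gene Psmd4 and Psma4 had the smallest rises, of 0.22, 0.22 and 0.17, though the other probe of Psmd10 was at 0.47 (adjusted p = 0.00055) and that of Psma4 at 0.12 (adjusted p = 0.25). The call of Psma4 (adjusted p = 0.044) was lost in 10 of the 16 fits that leave out 1 array. That of Psmd10 (adjusted p = 0.02) was lost without control replicate a (0.19, adjusted p = 0.061) or without replicate d at 200 µM (0.16, adjusted p = 0.063). From the red channel alone Psma3, Psma4, Psmd10 and Psmd4 did not pass, at 0.19, 0.13, 0.19 and 0.14.

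The inducible genes did not rise at 200 µM. Psmb9 stood at −0.15, −0.18, −0.28 and −0.29, below all control ratios of 0 to 0.08, and fell by 0.26 ± 0.0579 (adjusted p = 0.0044). Its call was lost from the red channel alone (−0.27, adjusted p = 0.18). Psmb8 stood at −0.14, −0.14, −0.3 and −0.27, also below the control range of −0.08 to 0.01. Its change of −0.19 ± 0.0652 did not pass (adjusted p = 0.053), but it passed with the replicate letter as a block (adjusted p = 0.022). Psmb10 at −0.09 ± 0.0451 (adjusted p = 0.18), Psme1 at −0.09 ± 0.0429 (adjusted p = 0.16) and Psme2 at 0.21 ± 0.0947 (adjusted p = 0.13) did not pass. The other fall was of Psmd9, an assembly chaperone, with ratios of −0.16, −0.17, 0.03 and −0.22 against 0.06 to 0.27. It fell by 0.27 ± 0.0674 (adjusted p = 0.0091), a call lost after normexp correction (−0.18, adjusted p = 0.23). Psme3 (−0.1 ± 0.0716) and Psme4 (0.19 ± 0.103), both of which rose after LPS, did not pass here.

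**Figure D5:**
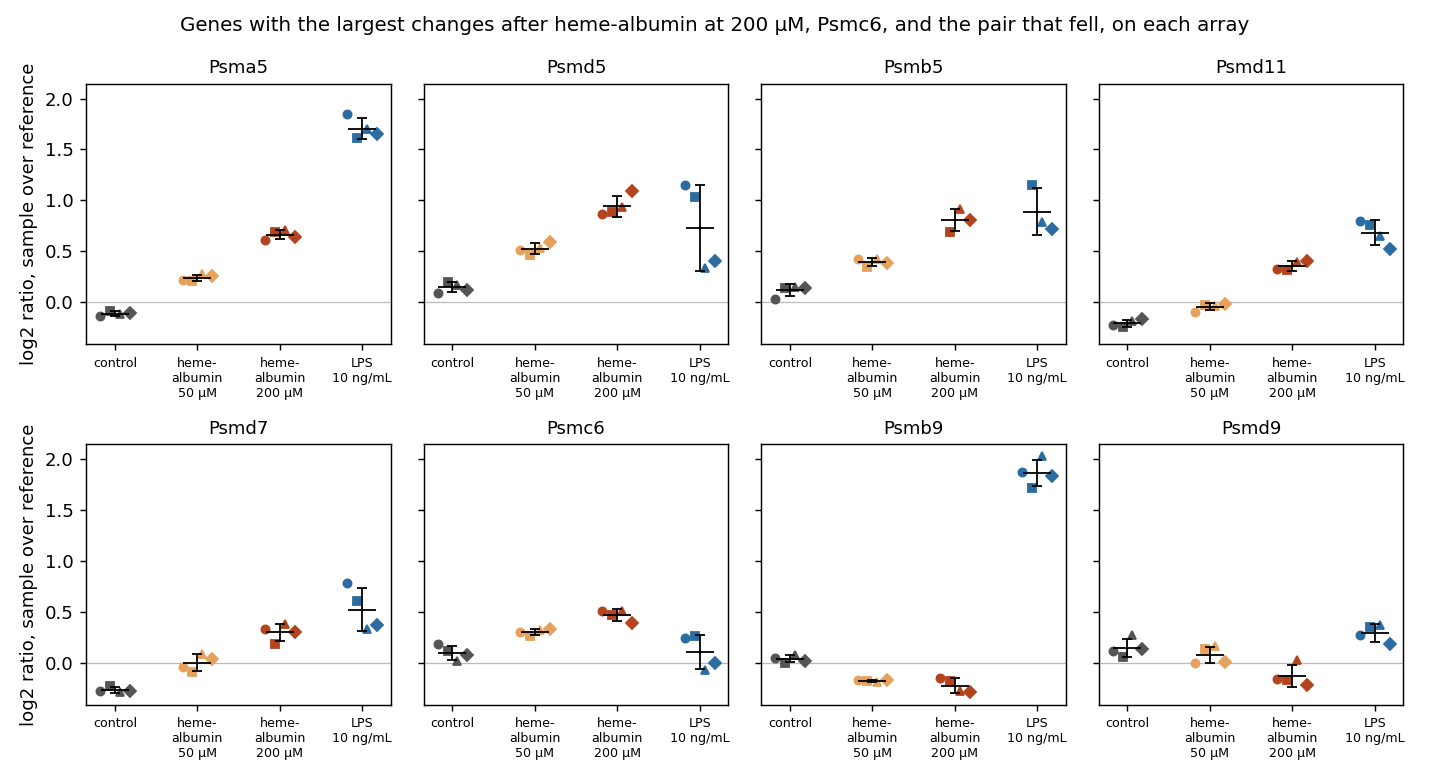
Log2 ratio of sample over untreated reference (vertical axis) on each array for Psma5, Psmd5, Psmb5, Psmd11, Psmd7, Psmc6, Psmb9 and Psmd9, by group (horizontal axis). Markers are replicates a to d and bars the mean ± SD. Psma5, Psmd5, Psmb5, Psmd11 and Psmd7 stand higher at 50 µM than in the control and higher again at 200 µM, Psmb9 stands below the control at both doses, and LPS replicates a and b of Psmd5 stand apart from c and d.

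At 50 µM 1 member rose and 0 fell, where 2.07% of all genes rose and 1.45% fell. At an unadjusted p under 0.05 limma had 8 members higher and 2 lower. No share of all genes is given at that threshold, so these counts cannot be set against it. A plain analysis of variance with adjusted p called 1 member higher and 1 lower, against 2.01% and 1.45% of all genes. The ratios did not overlap the control for 11 members higher and 4 lower, against 8.74% and 10.4% of all genes. At 2-fold 0 members passed in either direction, against 0.29% of all genes upward and 0.0784% downward. Psma5 stood at 0.22, 0.21, 0.27 and 0.25, above the control and below 200 µM on every array, and rose by 0.35 ± 0.0489 (adjusted p = 0.00068). Its call was lost from the red channel alone (0.29, adjusted p = 0.19). Psmd5, at 0.51, 0.46, 0.53 and 0.59, was also above every control array, but its change of 0.38 ± 0.147 did not pass (adjusted p = 0.25). The SE shared by all groups includes its LPS arrays, with an SD of 0.42, against 0.053 at 50 µM and 0.05 in the control. Psmb5 at 0.27 ± 0.0848 (adjusted p = 0.13), Psmd7 at 0.27 ± 0.085 (adjusted p = 0.13), Psmb9 at −0.22 ± 0.0579 (adjusted p = 0.06) and Psmb8 at −0.18 ± 0.0652 (adjusted p = 0.22) did not overlap the control and did not pass.

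Between the doses, 5 members were higher at 200 µM and 0 lower, where 4.2% of all genes were higher and 3.41% lower. At an unadjusted p under 0.05 limma had 17 higher and 1 lower, again with no share of all genes to set beside them. A plain analysis of variance with adjusted p called 4 and 0, against 4.12% and 3.61% of all genes. The ratios did not overlap for 18 members higher and 1 lower, against 10.2% and 11.3% of all genes. At 2-fold 0 members passed, against 0.635% and 0.196% of all genes. Psma5 was higher by 0.42 ± 0.0489 (adjusted p = 7.6e-05), Psmb5 by 0.41 ± 0.0916 (adjusted p = 0.015), Psmd11 by 0.4 ± 0.0559 (adjusted p = 0.00035), Psmd7 by 0.3 ± 0.085 (adjusted p = 0.049) and Psma3 by 0.18 ± 0.0447 (adjusted p = 0.024). With the replicate letter as a block, 3 were higher and 1 lower, against 5.08% and 4.31% of all genes. Psmb5 (adjusted p = 0.087) and Psmd7 (adjusted p = 0.067) no longer passed. Psmd9, at −0.2, passed with the block (adjusted p = 0.018), while its other probe was at −0.05 (adjusted p = 0.79 without the block). From the red channel alone 0 members passed, against 1.65% of all genes upward and 0.737% downward. In fits that leave out 1 array, 10 members were higher without LPS replicate a, 2 without replicate d at 200 µM, and 3 without replicate a, b or c at 50 µM or replicate c at 200 µM. No share of all genes is given for these fits. The call of Psmd7 was lost in 12 of the 16 such fits and that of Psma3 in 5. Psmb8 (−0.01 ± 0.0652), Psmb9 (−0.05 ± 0.0579), Psmb10 (−0.01 ± 0.0451) and Psme1 (−0.02 ± 0.0429) showed no difference between the doses that passed.

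Set directly against LPS, heme-albumin at 200 µM left 33 of 41 members lower, 14 of them at least 2-fold, and 1 higher, where 34.7% of all genes were lower, 13.6% at least 2-fold, and 44.6% higher. The ratios did not overlap for 28 members lower and 1 higher, against 30.4% and 40.3% of all genes. All 5 inducible genes were lower, with differences of −2.78 ± 0.0487 for Psmb10, −2.49 ± 0.102 for Psme2, −2.09 ± 0.0579 for Psmb9, −1.87 ± 0.0652 for Psmb8 and −1.49 ± 0.0429 for Psme1. Psma6 was at −1.75 ± 0.0955, and Psme3 at −1.56 ± 0.0716. Psmc6 was the one higher after heme-albumin, with ratios of 0.51, 0.47, 0.51 and 0.39 against 0.24, 0.26, −0.07 and 0 after LPS, a difference of 0.36 ± 0.0697 (adjusted p = 0.00022). Without LPS replicate a, Psmd1 (0.24, adjusted p = 0.0095) and Psmd5 (0.35, adjusted p = 0.022) were higher too. Psmb5 did not differ past the test, at −0.08 ± 0.0979 (adjusted p = 0.44), nor did Psmd5 at 0.21 ± 0.147 (adjusted p = 0.2).

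Of 30 listed genes that assemble, steer or feed the proteasome 28 were measured, and after LPS 14 rose and 11 fell, where 34.5% of all genes rose and 44.3% fell. Their median was 0.32. The ubiquitin gene Ubb rose by 1.24 ± 0.0665, and Nfe2l1, the transcription factor that drives proteasome genes when the proteasome is inhibited, by 1.52 ± 0.084. The shuttle gene Ubqln2 fell by 1.28 ± 0.191. Chaperones of core assembly divided: Pomp rose by 0.47 ± 0.0423, while Psmg2, Psmg1 and Psmg4 fell by 0.96 ± 0.0566, 0.48 ± 0.0611 and 0.43 ± 0.0569. Among deubiquitinases of the regulatory particle, Uchl5 and Usp14 fell by 0.71 ± 0.0757 and 0.51 ± 0.0899, while the member Psmd14 rose by 0.72. At 200 µM 6 rose and 1 fell, where 10.8% of all genes rose and 12% fell: Txnl1, a thioredoxin-like protein of the regulatory particle, by 0.71 ± 0.152 (adjusted p = 0.0037), Zfand5 by 0.61 ± 0.159 (adjusted p = 0.013), the shuttle gene Rad23b by 0.49 ± 0.0926 (adjusted p = 0.0015), the ubiquitin receptor gene Adrm1 by 0.46 ± 0.0716 (adjusted p = 3e-04), Nfe2l1 by 0.31 ± 0.084 (adjusted p = 0.015) and the unfoldase gene Vcp by 0.3 ± 0.0963 (adjusted p = 0.034). Zfand2a fell by 0.28 ± 0.0664 (adjusted p = 0.0068). At 50 µM 0 rose and 0 fell, where 2.07% of all genes rose and 1.45% fell. At an unadjusted limma p under 0.05, with no share of all genes given, 0 were higher and 1 lower. Plain analysis of variance made 0 calls.

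Genes that carry proteasome peptides to MHC class I rose with the inducible subunits after LPS, 13 of 16 with 2 lower and a median of 1.3, where 34.5% of all genes rose. The class I activator Nlrc5 rose by 2.97 ± 0.166, the peptide transporter genes Tap1 and Tap2 by 2.77 ± 0.0849 and 2.31 ± 0.0524, and the interferon regulatory factor Irf1 by 2.68 ± 0.155. Ifi30, a lysosomal thiol reductase, fell by 1.02 ± 0.0683, and the chaperone gene Canx fell by 0.4 ± 0.0858. At 200 µM 2 of 16 rose, H2-K1 by 0.22 ± 0.0574 and Tap2 by 0.19 ± 0.0524, and 0 fell, where 10.8% of all genes rose and 12% fell. At 50 µM 0 rose and 0 fell, where 2.07% of all genes rose and 1.45% fell. At an unadjusted limma p under 0.05, with no share of all genes given, 0 were higher and 1 lower. Plain analysis of variance made 0 calls.

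Summed red signals of markers of other cells were higher after LPS. The sums were not scaled between arrays, and in the fit of log2 ratios not every tested marker rose. Of 6 dendritic cell markers 0 were well above background on all control arrays, and Cd209a and Xcr1 were so on 0 of 16 arrays, but the summed red signal of the 6 went from 40 to 54 in the control to 1061 to 14330 after LPS, with Ccr7 and Zbtb46 passing upward. The summed lymphocyte markers went from 332 to 801 in the control to 881 to 2130 after LPS. Of these 7 markers Cd3e and Cd4 were well above background on all control arrays, and Cd3g, Cd8a and Cd79a on 0 of 16 arrays. In the fit Cd4 rose by 0.24 after LPS, and Cd3e did not pass (0.06, adjusted p of limma = 0.56). The summed neutrophil markers went from 2988 to 4496 to 7336 to 14707, and fibroblast markers from 26 to 45 to 387 to 486. The neutrophil markers S100a8, S100a9, Elane and Camp and the fibroblast marker Col1a2 were well above background on all control arrays. In the fit 3 of the 4 tested neutrophil markers rose after LPS and 1 fell. The fibroblast marker Dcn rose by 5.01, and Col1a2 did not pass (−0.23, adjusted p of limma = 0.64). Macrophage markers went from 106947 to 193207 in the control to 352384 to 872308 after LPS, with 5 of 9 rising and 4 falling. At 200 µM the sums were 42 to 70 for dendritic cell, 350 to 856 for lymphocyte, 5010 to 7140 for neutrophil, 28 to 79 for fibroblast and 168791 to 234947 for macrophage markers. Of the 9 macrophage markers 1 rose and 2 fell there, Fcgr1 by 1.58 ± 0.0602 and Mertk by 1.04 ± 0.175. The summed embryonic stem cell markers were 97 to 111 in the control, 104 to 121 at 200 µM and 186 to 222 after LPS. Nanog, the only one tested, did not pass after LPS (0.18, adjusted p of limma = 0.12). The part of such cells in the changes of the proteasome genes was not tested, and in RNA of whole cultures fewer cells of a type and less RNA per cell cannot be told apart.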

How the data were processed

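Messenger RNA of 4 groups of 4 samples was measured on two-colour Agilent arrays. LogRatio, as deposited, is the log10 ratio of the red to the green signal. Per the file headers, background was subtracted and dyes normalised (linear and lowess) before that, with Agilent Feature Extraction version 10.7.3.1 as the submitters' processing notes name it. The deposited median, background and processed signals are intensity values, per the file headers. The deposited value table, in log10, equals LogRatio on every array (largest difference 0). Per the labels, the authors ran an analysis of variance on these log10 ratios without further normalisation and filtered at 2-fold.

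Spots of a probe were averaged, and control and outlier spots left out, of 44397 spots. Probes were named through their accession with RefSeq genes of GRCm38.p6, which named 27234 probes, 0 of them with several symbols, and left 12195 unnamed. The headers name mm9 for the array design, so no probe coordinates are given. A probe was kept if any group had it well above background (red) on its 4 arrays, which 21458 were, and the brightest stood for its gene, which gave 12759 genes. Of the members, 10 have several kept probes, and 0 of them had opposite calls in any comparison. A probe passed and another of its gene did not for 1 gene after LPS, 2 at 200 µM, 0 at 50 µM, 3 between the doses and 3 at 200 µM against LPS. Limma 3.58.1 (R 4.3.3) was run on the log2 ratios (mean per group, all 16 arrays, no block, Benjamini-Hochberg over all genes in each of 5 comparisons). The R package data.table (version 1.17.8), pandas 2.3.3 and matplotlib 3.10.9 were used beside it. In data simulated for the comparison of LPS with control over 12759 genes, the code called 77, 86 and 96 percent of genes changed 1.5-, 2- and 3-fold, and 8 of 12559 unchanged ones. That simulation changed only 100, 50 and 50 genes, with independent noise and no difference between scan days. In the measured arrays 34.5% of genes rose and 44.3% fell after LPS, so the 8 cannot give their rate of false calls.

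Named were the 5 inducible genes, their counterparts, the other activators, every member that passed at 2-fold, the lowest and highest of each role, and up to 4 genes of each further list, of which 1 result is not reported here. Further genes were named after their values were seen: members that rose or fell at 200 µM, those that did not pass after LPS, and those that differed most between scan days. So were the other genes named from the further lists, which go beyond 4 per list. The members and lists were chosen with earlier results of these data known. Sample titles tie each letter to a tag shared across groups but do not say what it marks. Arrays of a letter deviated together, with correlations of 0.166 to 0.33 for 200 µM and control, 0.219 to 0.297 for 50 µM and control and 0.367 to 0.502 between the doses, so the block is given there. For LPS and control they were 0.0962 to 0.114, and for 200 µM and LPS 0.1 to 0.232, which is not over 0.1 throughout. Every group has its own position on the slides, so group and position cannot be told apart. The control arrays hold untreated RNA in both colours, so their spread can be mainly technical. Alternatives covered blocks, scan days, background correction, scaling, the filter on dim probes, the choice of probe, plain analysis of variance, the 2-fold rule and leaving out each array. The background alternatives (normexp with offset 50, and no subtraction) used median signals, since mean signals are not in the files used here.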

Additional observations from a re-analysis of the deposited data

Results flagged for a closer look

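For the named members, each group of 4 arrays was searched for 1 array that lay far from the other 3, by Dixon's test, in 147 groups. Chance alone flags about 1 in 20 such groups, and 9 were found. In the control, replicate a of Psmb5 was at 0.03 where the others were at 0.14 to 0.15, replicate a of Psmb6 at 0 where the others were at 0.2 to 0.24, replicate b of Psmb4 at −0.11 where the others were at −0.04 to −0.03, and replicate d of Psmc3 at −0.01 where the others were at −0.09 to −0.08. At 200 µM heme-albumin, replicate c was high for Psmb2 (0.42, others 0.14 to 0.17) and Psmc5 (0.54, others 0.4 to 0.41) and low for Psmd8 (−0.14, others −0.07 to −0.06). Replicate a at 200 µM was high for Psmd4 (0.19, others 0.07 to 0.08), and replicate b was low for Psme4 (−0.44, others −0.32 to −0.3). Without the array named, Psmb5, Psmb6, Psmb4 and Psmc3 kept their calls after LPS, and Psmc5 and Psmd4 kept theirs at 200 µM.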

How the results depend on the processing

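Over the 41 members, 33 to 39 rose after LPS under every alternative run except the 2-fold rule, which called 15, and 0 fell except on the second scan day alone, when 2 did. On that day alone 45.7% of all genes fell. Where it is given, the share of all genes that rose ran from 22.4% without the filter on dim probes to 38.9% with arrays centred on their median. Leaving out each of the 16 arrays in turn gave 35 to 38 rising and 0 falling, with no share of all genes given. By the 2-fold rule 15 were higher after LPS, against 14% of all genes, and 0 higher and 0 lower at 200 µM, against 2.05% and 0.98%. It called 0 higher at 50 µM, against 0.29%, and 0 higher between the doses, against 0.635%. At 200 µM against LPS it called 0 higher and 14 lower, against 16.8% and 13.6%. With the replicate block, the counts were 38 and 0 after LPS, where 35.3% of all genes rose and 44.9% fell. At 200 µM they were 14 and 3, against 12% and 13.7%, and at 50 µM 1 and 0, against 2.79% and 1.77%. Between the doses they were 3 and 1, against 5.08% and 4.31%. At 200 µM against LPS they were 1 and 33, against 45.4% and 35.3%. The block changed the calls of Psmb8 at 200 µM and of Psmb5, Psmd7 and Psmd9 between the doses, and, where letters do not pair the samples by the rule used, those of Psmd9 (0.15, adjusted p = 0.0097) and Psmd13 (0.12, adjusted p = 0.045) after LPS. It changed no other call among the 41 members.

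Members that fell at 200 µM numbered 4 with scan day as a block, where 14.3% of all genes fell. They also numbered 4 with probes above background on all 16 arrays (13.2% of all genes) or by plain analysis of variance (12.3%). Only 1 fell on the first scan day alone (8.06%), on the second alone (15.1%), after normexp correction (5.12%) or from the red channel alone (4.83%). At 50 µM, 0 rose on the first day alone (1.53% of all genes) or from the red channel alone (0.729%), and 3 on the second day alone (2.87%). At that dose 1 fell without background subtraction (1.42% of all genes) or by plain analysis of variance (1.45%). Between the doses, 3 were higher on the first day alone (3.38% of all genes) or after normexp correction (1.31%). There were 8 on the second day alone (5.01%) and 0 from the red channel alone (1.65%). On the second day alone, 3 were higher at 200 µM than after LPS, as were 46.1% of all genes. Leaving out each array gave 12 to 20 higher and 2 to 4 lower at 200 µM, 1 to 2 and 0 to 1 at 50 µM, 2 to 10 and 0 to 1 between the doses, and 1 to 3 and 30 to 34 at 200 µM against LPS. Shares of all genes are not given for those fits. The cause of the differences between alternatives was not tested.

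Reversed were Psmd5 at 200 µM against LPS on the first scan day alone (−0.22) and Psmd1 after LPS on the second alone (−0.16). Centring the arrays on their medians moved the median of all genes after LPS from −0.09 to 0 and that of the members from 0.72 to 0.81. Counts over members with values on all 16 arrays, an alternative chosen after seeing the data like the test of scan days, stayed within 1.5 times the main ones. Changes at 200 µM are mostly under 1.5-fold, a size at which the simulated LPS comparison missed part of the changed genes.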
